A study of Mus musculus with 17 samples.

Results

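The genes described are 9 markers of neural stem and progenitor cells outside the SOX family: Nes, Vim, Tnc, Fabp7, Gli3, Nr2e1, Pax6, Prom1 and Msi1. They were taken by symbol from a list, and all 9 were found on the array, with 1 probe each, among 18256 named genes. Neural precursors grown from adult mouse hippocampus were measured on 1 array at each of 17 times, 0 to 720 min after basic fibroblast growth factor (bFGF) and epidermal growth factor (EGF) were taken out of the medium. The 0 min array is the proliferating culture, and none of the 17 arrays is labelled as a time-matched control that stayed in growth factors. The later windows were 420 to 720 min (5 arrays), 240 to 360 min (3 arrays) and 90 to 180 min (4 arrays), and each was set against 0 to 60 min (5 arrays). All arrays share the same kind of culture, which proliferated on coated plates in Neurobasal medium with B27, bFGF and EGF. The labels name no genetic change and give neither strain nor exact age of the mice. Values are deposited log2 signals. A mean stands with the SD among the arrays of its window, and a change with its model standard error (SE).

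Neural stem cells carry a set of genes that is used to recognise them. Their cytoskeleton holds the intermediate filament proteins nestin and vimentin, their surroundings hold the matrix protein tenascin C, and their nuclei hold factors such as Gli3, Pax6 and Nr2e1 that act on patterning and self-renewal. In the adult hippocampus such cells lie in the dentate gyrus, and growth factors keep them dividing in culture. The series follows the first hours after these factors are withdrawn, and its title names events that come before differentiation.

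Across the time course the markers did not move as a block. Nes, Tnc and Gli3 were lower at 420 to 720 min than at 0 to 60 min, with Tnc 3.00-fold lower, Nes 1.85-fold lower and Gli3 1.72-fold lower. Fabp7 was 1.33-fold lower, with a call that several arrays decide. Nr2e1 was 1.41-fold lower at 240 to 360 min, and at 420 to 720 min it lay within its range at 0 to 60 min. Vim did not pass in any window, and Pax6, Prom1 and Msi1 had signals in the lower part of the array and did not pass any test.

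Of the 9 genes, 6 had a mean signal at or above the filter used for testing, 6.41, which is the median of all probe means. The mean signal of Pax6 was 5.90, that of Prom1 6.17 and that of Msi1 5.60, and these 3 were tested in a model over all 19854 features without the filter. No detection p-value accompanies the data, so a signal in this range cannot be separated from background. Neighbouring times stand in for replicates, so the p-values rest on scatter among arrays of 1 series and not on separate cultures. In total RNA of a culture, fewer cells of a type and less RNA per cell cannot be told apart.

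The labelled cell type was checked against marker lists. Of 10 neural precursor markers 9 were on the array, and all 9 were above the filter. Nes, Vim and Fabp7 are on this list and among the genes described here, so for them it is no separate check. Of the list, 4 rose late and 2, Nes and Fabp7, fell (27.9% and 27% of all features). Of 9 microglial markers on the array 0 were above the filter. Of 12 neuronal markers 3 were above the filter: Map2 (mean 12.77), Prox1 (8.92) and Neurod2 (6.71), of which Prox1 rose late by 1.03 and Map2 by 0.27 (adjusted p = 2.7e-07 and 0.025). The other neuronal markers, among them Dcx and Tubb3, lay below it, and of these Elavl4 fell in the model of all features. Of 11 oligodendrocyte lineage markers on the array 6 were above the filter, of which 4 rose late and 0 fell (27.9% and 27% of all features). Cnp rose by 2.25, Mbp by 1.39, Pdgfra by 1.33 and Cspg4 by 0.39, while Olig1, with a mean of 14.60, was at 0.02 (adjusted p = 0.90). Enpp6 rose in the model of all features. Of 10 astrocyte markers 7 were above the filter, of which 2 rose and 3 fell (27.9% and 27% of all features). S100b rose by 2.13 and Gfap by 1.07, and Aqp4 rose by 0.75 in the model of all features, while Glul fell by 0.97, Slc1a2 by 0.35 and Slc1a3 by 0.34. Of 11 endothelial and mural markers 3 were above the filter and all 3 fell, where 27% of all features fell. Acta2 was among them, with a fall of 0.71, and Vwf rose in the model of all features.

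Summed linear signal of the neuronal markers, most of it Map2, was 8068 to 10245 at 420 to 720 min and 7217 to 7992 at 0 to 60 min. The neural precursor sum was 25474 to 33154 at 420 to 720 min and 25390 to 26549 at 0 to 60 min. It includes Nes, Vim and Fabp7, with Vim as its largest part, so it is not independent of the 9 genes. The oligodendrocyte sum, most of it Olig1, was 26115 to 32438 at 420 to 720 min and 24862 to 29146 at 0 to 60 min. The astrocyte sum, most of it Slc1a3 and Aldoc, was 20589 to 25294 at 420 to 720 min and 25782 to 27598 at 0 to 60 min. The endothelial and mural sum was 936 to 1363 at 420 to 720 min and 1395 to 1638 at 0 to 60 min. The part of these shifts in the results on the 9 genes was not tested.

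Nes, Tnc and Gli3, whose late fall held under all 27 alternatives run, are shown with the 250 bases before a start site. The sequences are from RefSeq, build GRCm38.p6, 5′ to 3′ in the direction of the gene, and capitals mark a match to acaat on either strand, the core bound by SOX proteins. Nes lies at chr3:87970843-87971092 on the plus strand, Tnc at chr4:64047016-64047265 on the minus strand and Gli3 at chr13:15463473-15463722 on the plus strand.
Nes: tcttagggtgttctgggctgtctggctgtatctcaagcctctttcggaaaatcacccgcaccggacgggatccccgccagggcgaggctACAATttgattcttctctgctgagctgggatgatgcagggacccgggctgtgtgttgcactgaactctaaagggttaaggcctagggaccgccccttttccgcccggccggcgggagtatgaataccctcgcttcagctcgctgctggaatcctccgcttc
Tnc: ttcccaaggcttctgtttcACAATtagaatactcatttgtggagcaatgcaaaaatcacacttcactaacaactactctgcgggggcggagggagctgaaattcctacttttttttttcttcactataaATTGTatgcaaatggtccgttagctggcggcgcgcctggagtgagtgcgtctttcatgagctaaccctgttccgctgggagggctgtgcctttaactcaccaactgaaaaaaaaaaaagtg
Gli3: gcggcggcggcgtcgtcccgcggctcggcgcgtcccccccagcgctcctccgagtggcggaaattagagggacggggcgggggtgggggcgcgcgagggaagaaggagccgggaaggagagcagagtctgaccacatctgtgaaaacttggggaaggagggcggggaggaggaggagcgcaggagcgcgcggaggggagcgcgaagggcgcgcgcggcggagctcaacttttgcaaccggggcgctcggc

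The promoter table held 8 of the 9 genes, in 11 windows of 250 bases before to 50 after a start site. Short motifs were searched on both strands, each given with its share among all 32851 windows of the same length. The SOX core acaat was in 31.0% of them, the Nr2e1 core aagtca in 15.1%, the MYC site cacgtg in 7.15%, the AP-1 site tgactca in 5.20% and the GLI core gggtggt in 4.61%. The SOX core occurred in windows of Nes, Tnc, Fabp7 and Pax6, aagtca in those of Nr2e1 and Fabp7, and tgactca in 1 window of Prom1. The windows of Vim and Gli3 held none of these letters, and cacgtg and gggtggt were in no window of the 8 genes. No match overlapped one of another motif, and the match of Tnc on the opposite strand lies in the windows of both its start sites.

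**Figure D1:**
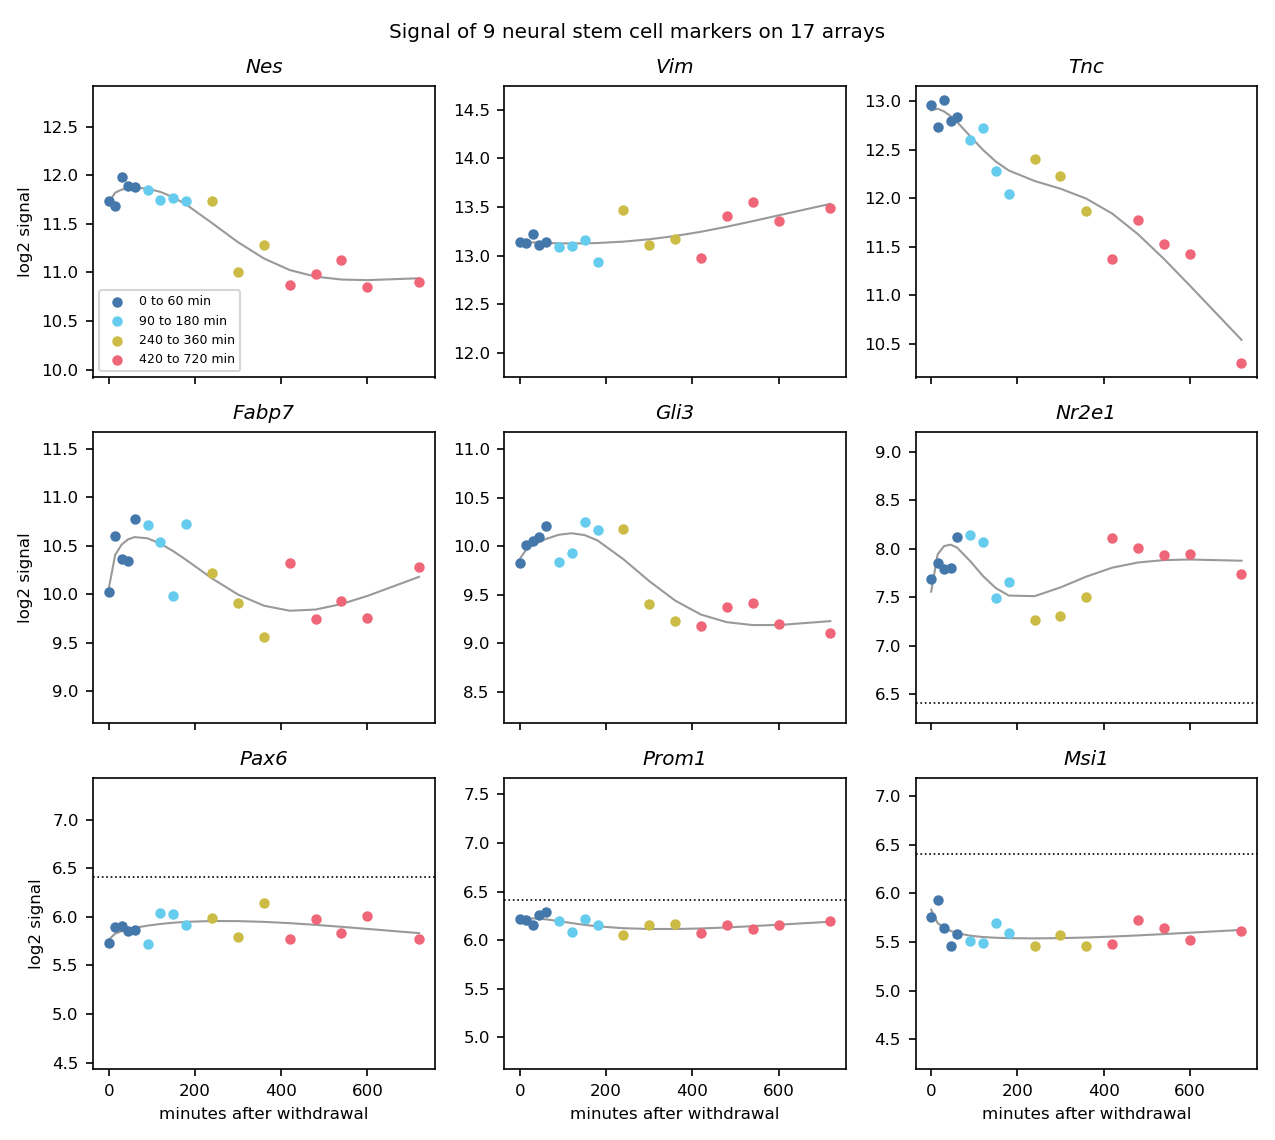
Log2 signal of the 9 markers (y axis, each panel spanning 3 log2 units) against minutes after withdrawal of bFGF and EGF (x axis), 1 point per array, coloured by window, with the fitted curve in grey and the filter value of 6.41 as a dotted line where it falls in the panel. Nes and Gli3 step down between 240 and 300 min, Tnc declines to 10.30 at 720 min, Nr2e1 dips at 240 to 360 min, and Pax6, Prom1 and Msi1 lie below the filter throughout.

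The intermediate filament genes Nes and Vim differed in their course. Nestin, the filament protein by which neural progenitors are usually recognised, needs a partner such as vimentin to form filaments. The Nes signal was 11.74, 11.69, 11.98, 11.88 and 11.87 at 0, 15, 30, 45 and 60 min, and 11.85, 11.75, 11.76 and 11.73 at 90, 120, 150 and 180 min. It was 11.73, 11.01 and 11.28 at 240, 300 and 360 min, and 10.87, 10.99, 11.12, 10.85 and 10.90 at 420, 480, 540, 600 and 720 min. The 240 min array lay within the range at 0 to 60 min, and all 5 late arrays lay below all 5 early ones.

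Nes averaged 10.95 ± 0.11 at 420 to 720 min and 11.83 ± 0.12 at 0 to 60 min (SD, n = 5 times each). It fell by 0.89 on the log2 scale (SE 0.10, limma adjusted p = 2.4e-07). Of 9940 features, 27% fell in this comparison and 19.1% had late arrays entirely below the early ones. In Nes, the change at 240 to 360 min was -0.49 (SE 0.12, adjusted p = 0.0026), and that at 90 to 180 min was -0.06 (adjusted p = 0.79). At 240 to 360 min Nes overlapped the early arrays, because the 240 min array, at 11.73, lay among them. The largest step of Nes between neighbouring times was -0.73, between the single arrays at 240 and 300 min, with a residual SD of 0.15 around the fitted curve. It is named for its size, and 7.23% of features had their largest step there. The 173 features above the filter that fell by over 0.5 in this step were 1.74% of the total, and the median absolute step over all features was 0.15 there, where the steps between neighbouring times had medians of 0.12 to 0.16.

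Vimentin is a filament protein of progenitors, astrocytes and many dividing cells. The Vim signal lay between 13.11 and 13.23 at 0 to 60 min and between 12.94 and 13.16 at 90 to 180 min. It was 13.47, 13.11 and 13.17 at 240, 300 and 360 min, and 12.97, 13.41, 13.55, 13.35 and 13.49 at the 5 late times. The late arrays other than 420 min were above every array at 0 to 60 min, while that at 420 min was below them.

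Vim averaged 13.36 ± 0.23 at 420 to 720 min and 13.15 ± 0.05 at 0 to 60 min, a difference of 0.21 (95% interval 0.0051 to 0.41, adjusted p = 0.077), which did not pass. Without the 420 min array the difference was 0.30 and passed (adjusted p = 0.0054), and with array weights it was 0.24 (adjusted p = 0.038). The curve over time had a span of 0.41 and did not pass (adjusted p = 0.089), but it passed without the array at 240 min (span 0.51, adjusted p = 0.019) or 420 min (span 0.39, adjusted p = 0.035).

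Other filament and linker genes were counted from a list. Of 9 genes 7 were on the array and 3 above the filter, of which 2 rose and 0 fell at 420 to 720 min, where 27.9% of features rose and 27% fell, the background for each list count at these times. Gfap, the filament of astrocytes and of adult radial stem cells, was at 7.41 ± 0.51 at 420 to 720 min and 6.34 ± 0.09 at 0 to 60 min and rose by 1.07 (SE 0.16, adjusted p = 6.2e-06). Its early mean lay below the filter value of 6.41. Plec, which makes the linker plectin and no filament, rose by 1.22 (SE 0.12, adjusted p = 1.4e-08). Synm, which makes a filament partner of vimentin, was at 0.02 (adjusted p = 0.90), and the neurofilament genes Nefl and Nefm lay below the filter.

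Tenascin C is a matrix glycoprotein of the stem cell niche that alters how progenitors respond to growth factors. The Tnc signal was 12.96, 12.73, 13.01, 12.80 and 12.84 at 0 to 60 min, and 12.60, 12.73, 12.29 and 12.04 at 90 to 180 min. It was 12.41, 12.23 and 11.87 at 240 to 360 min, and 11.38, 11.78, 11.53, 11.43 and 10.30 at 420 to 720 min. Each later window lay below all early arrays, by a gap smaller than the rounding at 90 to 180 min, and the array at 720 min was the lowest.

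Tnc averaged 11.28 ± 0.57 at 420 to 720 min and 12.87 ± 0.11 at 0 to 60 min. It fell by 1.58 (SE 0.19, adjusted p = 2.7e-07), and 61 of 9940 features had a more negative change. Without the 720 min array Tnc fell by 1.34 late. Tnc also fell at 240 to 360 min, by 0.70 (SE 0.22, adjusted p = 0.015), but not without the 360 min array (-0.55, adjusted p = 0.11). At 90 to 180 min the change was -0.46 (SE 0.20, adjusted p = 0.15). That change passed without the 720 min array (-0.46, adjusted p = 0.018). In 6.63% of features the arrays at 90 to 180 min lay below all early ones. Between 240 to 360 min and 420 to 720 min Tnc fell by a further 0.89 (SE 0.22, adjusted p = 0.0075), where 8.77% of features fell and 9.97% had windows that did not overlap with the later one lower, but this did not pass without the 240 min array (-0.77, adjusted p = 0.060). The largest step of Tnc was -1.13, between the single arrays at 600 and 720 min, and 330 features (3.32%) fell by over 0.5 in it. The span of the fitted curve was 2.38 (adjusted p = 2.8e-10) and 1.52 without the 720 min array (adjusted p = 1.4e-08).

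Of 11 other genes of tenascins, lecticans and their receptors, 11 were on the array and 5 above the filter, of which 2 rose and 1 fell at 420 to 720 min (27.9% and 27% of all features). Itgav, an integrin subunit of receptors for matrix proteins, fell by 0.72 (SE 0.08, adjusted p = 7.2e-08). Ncan, the proteoglycan neurocan, rose by 0.47 (adjusted p = 0.00048) and the integrin gene Itgb8 by 0.33 (adjusted p = 0.0028). Bcan, the proteoglycan brevican, was at -0.05 (adjusted p = 0.80). The related genes Tnr, Tnxb and Tnn lay below the filter. So did Vcan, the proteoglycan versican, which rose by 0.65 in the model of all features (adjusted p = 1.2e-07).

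**Figure D2:**
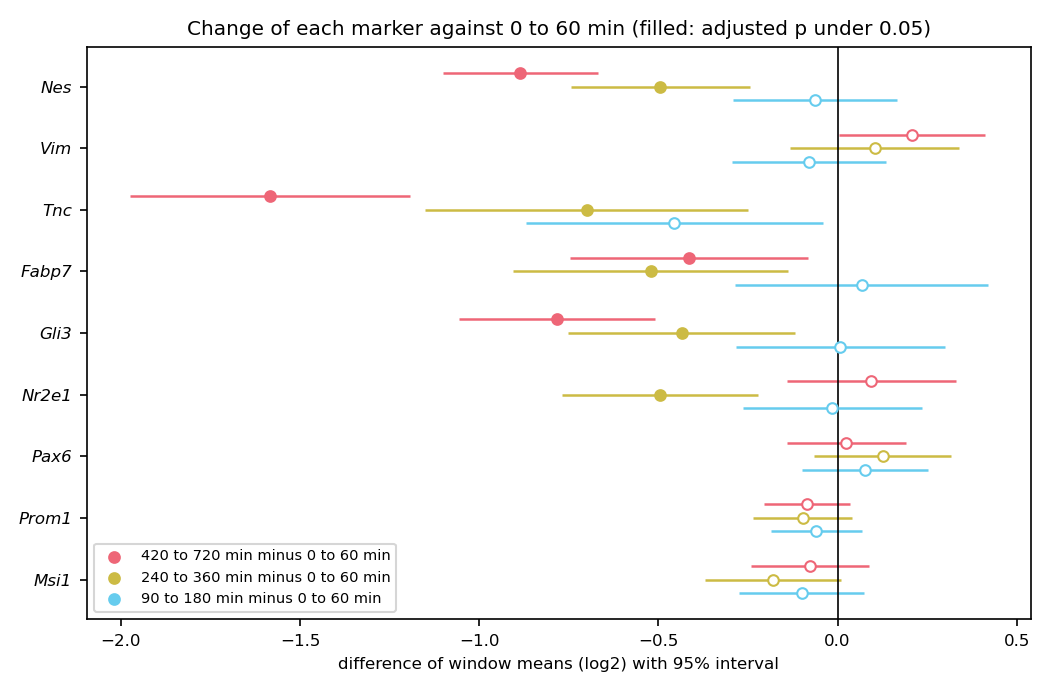
Difference of window means on the log2 scale (x axis) for each of the 9 markers (y axis), with 420 to 720 min, 240 to 360 min and 90 to 180 min each set against 0 to 60 min. Points are differences, bars 95% intervals, and filled points passed at an adjusted p under 0.05. The late point of Tnc lies at -1.58, Nes at -0.89 and Gli3 at -0.78, Nr2e1 is filled at 240 to 360 min alone, and no point at 90 to 180 min is filled.

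Gli3 is a zinc finger factor at the end of the hedgehog pathway, acting mainly as a repressor when the signal is off. Its signal was 9.83, 10.01, 10.06, 10.09 and 10.21 at 0 to 60 min, and 9.84, 9.93, 10.25 and 10.17 at 90 to 180 min. It was 10.17, 9.40 and 9.23 at 240, 300 and 360 min, and 9.17, 9.37, 9.42, 9.20 and 9.11 at 420 to 720 min. The 240 min array sat with the early ones and every later array was below all of them.

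Gli3 averaged 9.26 ± 0.13 at 420 to 720 min and 10.04 ± 0.14 at 0 to 60 min, and fell by 0.78 (SE 0.13, adjusted p = 2.8e-05). At 240 to 360 min it fell by 0.44 (SE 0.15, adjusted p = 0.030). That call was lost with an early window of 0 to 45 min (-0.39, adjusted p = 0.066), and without the array at 45 min (-0.42, adjusted p = 0.054), 60 min (-0.39, adjusted p = 0.065), 300 min (-0.34, adjusted p = 0.17) or 360 min (-0.25, adjusted p = 0.27). The change at 90 to 180 min was 0.01 (adjusted p = 0.98). The largest step of Gli3 was -0.77, between the single arrays at 240 and 300 min, with a residual SD of 0.20 around the curve. With the 240 min array left out, the change between 90 to 180 min and the next window was -0.73 (adjusted p = 0.00069), and with it -0.44 (adjusted p = 0.057).

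In the hedgehog list 12 of 13 genes were on the array and 6 above the filter, of which 1 rose and 2 fell at 420 to 720 min (27.9% and 27% of all features). Cdon, a co-receptor that binds the ligand, fell by 1.73 (SE 0.13, adjusted p = 2.3e-10), and the factor gene Gli2 fell by 0.23 (SE 0.10, adjusted p = 0.048). Ptch1, the receptor and a target of the pathway, rose by 0.27 (SE 0.10, adjusted p = 0.023), with an early mean of 6.52 near the filter. Hhip, which makes an inhibitor of the ligand and is also a target, was at 0.26 late (adjusted p = 0.12) but rose by 1.00 at 240 to 360 min (adjusted p = 5.0e-05). The ligand gene Shh and the target Gli1 lay below the filter, and Shh fell by 0.29 in the model of all features (adjusted p = 0.0068).

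Nr2e1 encodes TLX, an orphan nuclear receptor that represses genes of differentiation and is needed for adult neural stem cells to renew. Its signal was 7.69, 7.85, 7.79, 7.81 and 8.12 at 0 to 60 min, and 8.14, 8.06, 7.49 and 7.66 at 90 to 180 min. It was 7.27, 7.31 and 7.50 at 240 to 360 min, and 8.11, 8.01, 7.93, 7.95 and 7.74 at 420 to 720 min. The low signals ran from 150 to 360 min, and all 3 arrays at 240 to 360 min lay below every early and every late array.

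Nr2e1 averaged 7.36 ± 0.12 at 240 to 360 min (n = 3 times) and 7.85 ± 0.16 at 0 to 60 min, and fell by 0.50 (SE 0.13, adjusted p = 0.0051), where 18% of features fell and 17.4% lay entirely below the early arrays. It averaged 7.95 ± 0.14 at 420 to 720 min and rose by 0.59 above 240 to 360 min (SE 0.13, adjusted p = 0.0041), where 9.59% of features rose and 10.9% had windows that did not overlap with the later one higher. Both calls held with any 1 array left out. They did not hold with 420 min moved into the middle window (-0.31, adjusted p = 0.11, and 0.36, adjusted p = 0.13). Against 0 to 60 min the late difference was 0.09 (95% interval -0.14 to 0.33, adjusted p = 0.51). The curve over all times passed narrowly (span 0.53, adjusted p = 0.041), where 61.9% of features passed. The curve did not pass with all features tested (adjusted p = 0.064), with 3 degrees of freedom (adjusted p = 0.27), or without the array at 240 min (adjusted p = 0.20), 300 min (0.12), 360 min (0.077), 480 min (0.090), 540 min (0.11) or 600 min (0.11).

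Among 10 listed co-repressors and targets of TLX, 9 were on the array, all 9 above the filter, and 4 rose and 1 fell at 420 to 720 min (27.9% and 27% of all features). Wnt7a, which TLX activates in mouse neural stem cells, fell by 1.73 (SE 0.14, adjusted p = 7.1e-10). The histone deacetylase genes Hdac5 and Hdac7 rose by 1.35 (SE 0.12) and 0.62 (SE 0.11), and Rcor2, a co-repressor that works with the demethylase Kdm1a, rose by 1.26 (SE 0.10). Nr2e1 itself fell at 240 to 360 min and did not pass late. At 240 to 360 min 4 of the 9 rose and 1 fell (17% and 18% of all features). Wnt7a was then at -1.49 (adjusted p = 2.3e-07). Hdac5 rose by 1.16, Rcor2 by 0.81, Hdac7 by 0.66 and Cdkn1a by 0.66 (adjusted p = 0.0091 for Cdkn1a). Late, Cdkn1a was at 0.14 (adjusted p = 0.48). A link of these changes to Nr2e1 was not tested.

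Fabp7, or brain lipid-binding protein, carries fatty acids in radial glia and progenitors. Its signal varied more between neighbouring times than that of Nes or Gli3, with a residual SD of 0.28 around the curve. It was 10.03, 10.60, 10.36, 10.34 and 10.78 at 0 to 60 min, and 10.71, 10.54, 9.98 and 10.72 at 90 to 180 min. It was 10.22, 9.91 and 9.56 at 240 to 360 min, and 10.33, 9.74, 9.93, 9.75 and 10.29 at 420 to 720 min. The windows overlapped, and the 0 min array was the lowest of the early ones.

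Fabp7 averaged 10.01 ± 0.28 at 420 to 720 min and 10.42 ± 0.29 at 0 to 60 min, and fell by 0.41 (SE 0.16, adjusted p = 0.032). This call was lost with all features tested (adjusted p = 0.056), with 60 min moved to the next window (-0.33, adjusted p = 0.11), and without the array at 15 min (-0.37, adjusted p = 0.077), 60 min (-0.33, adjusted p = 0.10), 480 min (-0.35, adjusted p = 0.088), 540 min (-0.40, adjusted p = 0.063) or 600 min (-0.35, adjusted p = 0.089). At 240 to 360 min the change was -0.52 (SE 0.19, adjusted p = 0.032), and it did not pass with all features tested (adjusted p = 0.055), with an early window of 0 to 45 min (-0.43, adjusted p = 0.089) or a late window of 480 to 720 min (-0.42, adjusted p = 0.058). It also did not pass without the array at 15 min (-0.48, adjusted p = 0.068), 60 min (-0.43, adjusted p = 0.083), 300 min (-0.53, adjusted p = 0.079) or 360 min (-0.35, adjusted p = 0.22). The curve over all times passed (span 0.76, adjusted p = 0.0019) and kept its call under all 28 alternatives run. Of 5 other genes of fatty acid binding proteins and their receptors, 4 were on the array and 1 was above the filter. This was Ppard, a nuclear receptor for fatty acids, which rose by 0.81 (SE 0.09, adjusted p = 1.4e-07).

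Pax6, a paired homeobox factor of dorsal forebrain progenitors, had signals between 5.72 and 6.14 over the 17 arrays. Its late mean was 5.87 ± 0.11, against 5.85 ± 0.07 at 0 to 60 min (difference 0.02, 95% interval -0.14 to 0.19, adjusted p = 0.89). Of 14 other patterning factors listed, 11 were on the array, 5 of them below the filter like Pax6 and 6 above it, of which 2 rose and 1 fell late (27.9% and 27% of all features). Meis2 and Meis1, homeobox partners of Pax6 in other settings, rose by 1.16 (SE 0.16, adjusted p = 1.9e-06) and 0.68 (SE 0.11, adjusted p = 1.8e-05). Lhx2, which keeps cortical progenitors dividing, fell by 0.76 (SE 0.10, adjusted p = 9.7e-07), and Otx1 was at 0.19 (adjusted p = 0.30).

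Prom1, or CD133, is a membrane protein of progenitor protrusions, and its signals lay between 6.05 and 6.29. The late difference was -0.08 (95% interval -0.20 to 0.04, adjusted p = 0.34). Of 4 genes listed with it, 3 were on the array and 2 above the filter, and both rose late, as did 27.9% of all features. Ttyh1, a membrane protein of neural stem cells, rose by 2.09 (SE 0.16, adjusted p = 4.8e-10), and Ift88, a ciliary transport gene, rose by 0.34 (SE 0.09, adjusted p = 0.0025).

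Msi1 encodes Musashi, an RNA-binding protein that holds back translation of differentiation genes. Its signals lay between 5.45 and 5.93, where 2.77% of probes had a mean as low or lower, and the late difference was -0.08 (95% interval -0.24 to 0.09, adjusted p = 0.58). The probe of its relative Msi2 had a mean of 9.53 and a late difference of 0.02 (adjusted p = 0.90), while the difference at 240 to 360 min was 0.35 and passed (adjusted p = 0.043). Of the 3 genes listed with Msi1, Numbl, a paralogue of the Musashi target Numb, rose by 0.36 late (SE 0.09, adjusted p = 0.0020), and Numb lay below the filter.

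Counted over all 9 genes, 4 fell and 0 rose at 420 to 720 min, where 27% of the 9940 features fell and 27.9% rose. Pax6, Prom1 and Msi1 are not among the 9940, and every marker that fell in this or the next window was among the 6 above the filter. With all 19854 features in 1 model, 3 of the 9 fell, where 14.2% of features fell and 15.1% rose. At 240 to 360 min 5 of the 9 fell and 0 rose, where 18% of the 9940 features fell and 17% rose. In the model of all features 4 fell, where 9.24% fell and 8.72% rose. At 90 to 180 min 0 of 9 passed in limma, while 6.13% of features fell and 5.48% rose, or 3.1% and 2.75% in the model of all features. At an unadjusted p under 0.05, 1 of the 9 passed there, which was Tnc. The share of all features under that rule was not counted, so this count has no background.

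Between neighbouring windows, Nes, Fabp7 and Nr2e1 fell at 240 to 360 min relative to 90 to 180 min. The changes were -0.43, -0.59 and -0.48 (adjusted p = 0.020, 0.037 and 0.018), where 9.46% of features fell and 8.51% rose, or 4.44% and 4.05% in the model of all features. Each call was lost with certain single arrays left out. Nes lost it without 90 min (adjusted p = 0.055), 300 min (0.19) or 360 min (0.084). Fabp7 lost it without 90 min (adjusted p = 0.11), 120 min (0.083), 180 min (0.086), 300 min (0.10) or 360 min (0.23). Nr2e1 lost it without 90 min (adjusted p = 0.076), 120 min (0.069), 240 min (0.058) or 300 min (0.075). At 420 to 720 min relative to 240 to 360 min, Nes and Tnc fell and Nr2e1 rose. There 8.77% of the 9940 features fell and 9.59% rose, or 4.05% and 4.67% in the model of all features. Nes changed by -0.39 (adjusted p = 0.027), and did not pass without the array at 240 min (-0.19, adjusted p = 0.29) or 600 min (-0.37, adjusted p = 0.055).

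The median late difference of the 9 genes was -0.08, beside -0.0027 for all features, and their median at 240 to 360 min was -0.44, beside -9.9e-05. The windows were compared with the same early arrays, so their values share these arrays. Over the whole time course 5 of 9 changed, all of them among the 6 above the filter, where 61.9% of the 9940 features passed. In the model of all features 4 of 9 changed, where 33.1% passed.

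The courses of the markers were set side by side by Pearson's r over the 17 times, given as a description since all points share the same arrays and a common trend in time. Nes and Gli3 had r = 0.93, Nes and Tnc 0.84, and Tnc and Gli3 0.78. Fabp7 had r = 0.60 with Nes and 0.59 with Gli3, and 0.37 with Tnc. Vim had r of -0.46 with Tnc and -0.38 with Nes. Nr2e1 had r of -0.03 with Nes, -0.01 with Tnc and 0.39 with Fabp7.

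**Figure D3:**
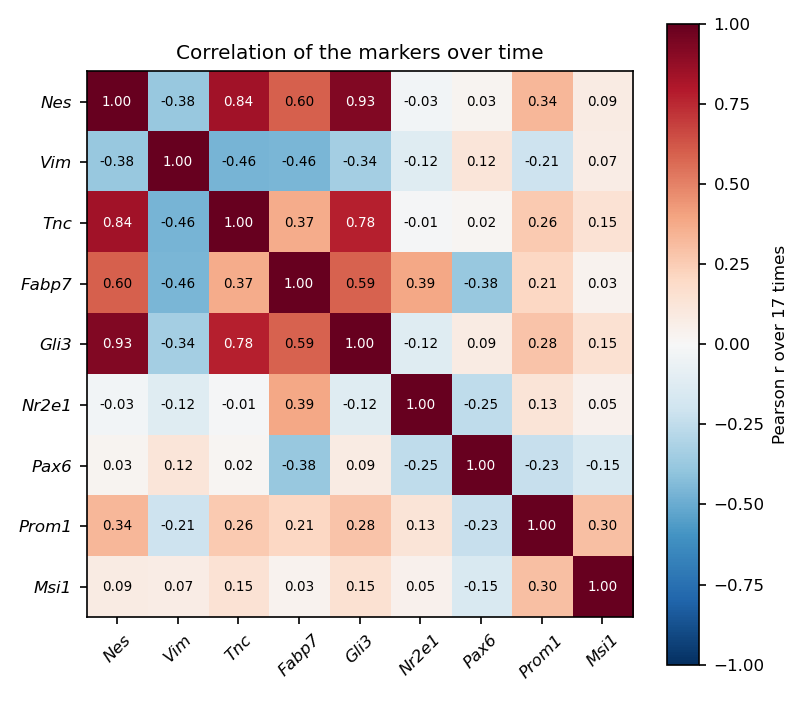
Pearson's r over the 17 times for each pair of the 9 markers (both axes), coloured from -1 to 1 with the value in each cell. Nes, Tnc and Gli3 form the group of high values (0.78 to 0.93), while the cells of Pax6, Prom1 and Msi1, whose signals were below the filter, lie between -0.38 and 0.34.

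The genes above the filter whose courses were most like each marker that changed were also listed, by the same r. For Nes they were Srm, which makes spermidine (0.97), the ETS factor Etv4 (0.96) and the mitochondrial carrier gene Slc25a15 (0.96), and 155 features had r over 0.9. For Tnc they were the pyrimidine synthesis gene Umps, the replication helicase gene Mcm5 and the nuclear pore gene Nup107 (all 0.96), and 92 features had r over 0.9. For Gli3 they were the ectonucleotidase gene Nt5e, Nes itself and the collagen-modifying gene P3h2 (each 0.93), with 20 features over 0.9. For Fabp7 the nearest were Pgam1, a glycolytic enzyme (0.92), Serf1 (0.88) and Foxj3 (0.87), and 1 feature was over 0.9. For Nr2e1 no feature was over 0.9, and the nearest were Usp7 (0.81), Smpd3 (0.80) and Ywhag (0.79).

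Other stem and progenitor genes were counted to set the markers in context, from a list that also holds SOX, Notch and ID genes. Of 22 listed, 21 were on the array and 15 above the filter, of which 8 rose, 1 fell and 6 did not pass at 420 to 720 min, where 27.9% of the 9940 features rose and 27% fell. Their median difference was 0.30, beside 0.00034 for all 9940 features tested. Hes5, a Notch effector, rose by 2.53 (SE 0.24), Notch1 by 0.90 (SE 0.11), the stem cell factor Sox2 by 0.73 (SE 0.12) and Hopx, a marker of adult hippocampal stem cells, by 0.69 (SE 0.10), with adjusted p-values of 1.3e-08, 4.9e-07, 1.8e-05 and 3.6e-06. Below the filter, Id4 rose by 1.58 in the model of all features (adjusted p = 1.2e-08). The gene that fell was Fgfr1, a receptor for bFGF (-0.49, SE 0.09, adjusted p = 0.00011), while Egfr, the receptor for EGF, rose by 0.58 (SE 0.14, adjusted p = 0.0012).

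**Figure D4:**
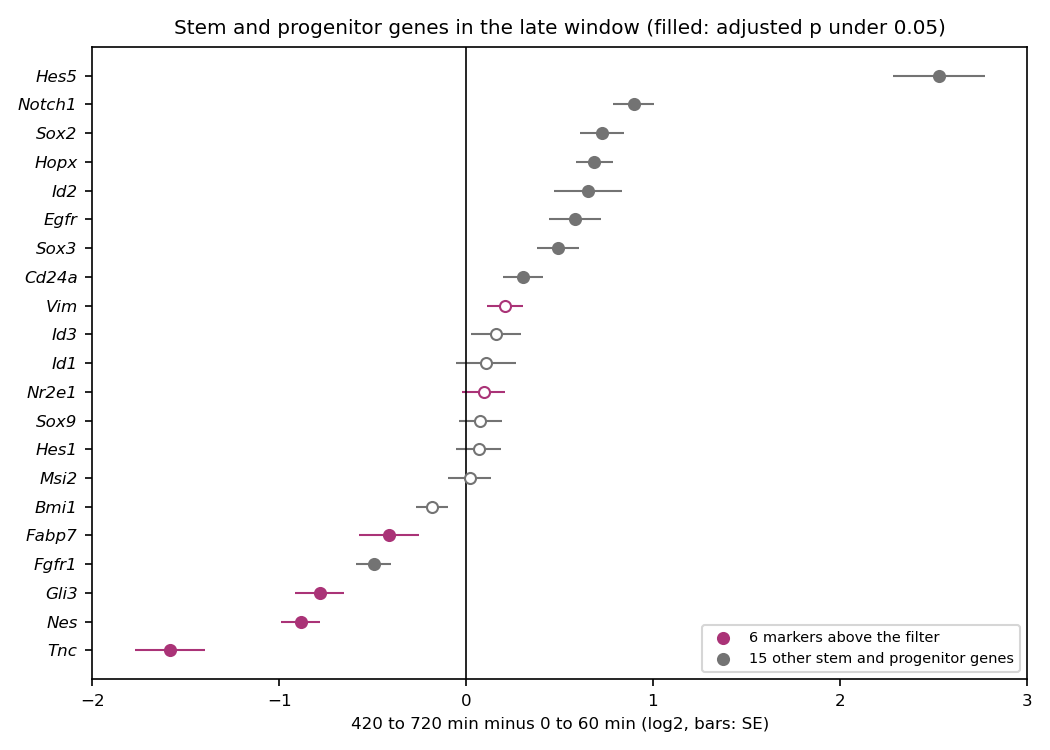
Difference between 420 to 720 min and 0 to 60 min on the log2 scale (x axis, bars SE) for the 6 markers above the filter and 15 other stem and progenitor genes (y axis, ordered by the difference). Filled points passed at an adjusted p under 0.05. The 4 markers that fell and Fgfr1 lie below -0.4, and 8 of the other genes lie between 0.30 and 2.53.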

How the data were processed

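Total RNA of 17 samples was amplified and labelled with biotin for Illumina bead arrays, per the labels' protocols. The authors deposited log2 signals, a scale inferred from the values (5.14 to 15.47). For background correction and normalization, the method is not given in the sources used here. Array medians lay between 6.40 and 6.42, so no further scaling was done. The number of arrays limits the precision.

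Of 19949 probes, 18351 had 1 symbol, 0 several and 1598 none, from the platform annotation, updated with the RefSeq gene table of GRCm38.p6 (305 symbols changed). For a gene with several probes, the brightest on average was taken. Features with a mean under 6.41 were left out, which kept 9940 of 19854. Tests used limma 3.58.1 in R 4.3.3: a moderated F test of a natural spline in the square root of minutes (4 degrees of freedom), and contrasts of 4 window means, with Benjamini-Hochberg adjustment over all features and a threshold of 0.05. The procedure was tested on simulated data. Named were the 9 genes, up to 4 genes of each list above the filter with the largest late difference, and the 3 genes most like each marker that changed. Fgfr1, Egfr, Cdkn1a, the cell type markers and the genes given as below the filter were named after their values were seen. The members, windows and lists were chosen with earlier results of these data known. Alternatives covered scaling, the filter, probe choice, variance model, array weights, the curve, window limits and each array left out.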

Additional observations from a re-analysis of the deposited data

Results flagged for a closer look

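In the windows of 4 or 5 arrays, 27 sets of values (9 genes in 3 windows) were screened for 1 array far from the others, and 2 were found, where chance gives about 1 in 20. Tnc at 720 min was 10.30, while the other 4 late arrays lay between 11.38 and 11.78. Pax6 at 0 min was 5.73, while the other 4 early arrays lay between 5.85 and 5.90, all below the filter value of 6.41.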

How the results depend on the processing

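No paired analysis was possible because the labels give 1 array per time and no replicate numbers. The late falls of Nes, Tnc and Gli3 kept their call under all 27 alternatives run, with ranges of -0.93 to -0.85, -1.71 to -1.34 and -0.84 to -0.74, and no marker's difference reversed while called. With array weights 1 marker rose late (Vim) and 1, not 2, fell between 240 to 360 and 420 to 720 min. With an early window of 0 to 45 min, 3 markers fell at 240 to 360 min and 714 features changed at 90 to 180 min, against 1154. With a late window of 480 to 720 min, 1 marker rose late, 3 fell at 240 to 360 min, and 0 rose and 1 fell between these windows. With each array left out in turn, markers that fell numbered 3 to 4 late, 2 to 5 at 240 to 360 min, 0 to 1 at 90 to 180 min, 0 to 4 between 90 to 180 and 240 to 360 min, and 0 to 3 between the last windows. Markers that rose late numbered 0 to 1, and those that changed over time 4 to 6. Features called then ranged from 686 to 1317 at 90 to 180 min, 934 to 2007 between 90 to 180 and 240 to 360 min, and 805 to 2016 between the last windows. The causes were not tested. Signals below the filter limit what can be said of Pax6, Prom1 and Msi1.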
